A study of Mus musculus with 6 samples.

Results

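The genes studied here are 10 neighbours of Aqp2 on mouse chromosome 15, which flank the cluster formed by Aqp2, Aqp5 and Aqp6. They are a named list of flanking genes, not all the genes nearest to the cluster. For example, Asic1, Cox14, Cers5, Fam186a and Prpf40b lie closer than Larp4 and are not among them. In gene order the 10 are Fmnl3, Tmbim6, Nckap5l, Bcdin3d and Faim2 on one side and Racgap1, Smarcd1, Gpd1, Lima1 and Larp4 on the other. Of these 10, 9 had a probe set annotated to them, out of 18193 genes with one, and Fmnl3 was not analysed here. Each gene was represented by its probe set of highest mean signal. A filter on low signal (mean over the 6 arrays above 85.5, the median of all probe sets) kept 8 of the 9, among 10342 genes in all, and Nckap5l lay below it.

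Expression was measured on 6 arrays of mpkCCD cells, an immortalised mouse line from the cortical collecting duct. The arrays were 1 each of the original cells and of clones 2, 3, 9, 10 and 11, each clone a colony grown from them, and every line had received dDAVP, a stable analog of vasopressin, at 0.1 nM over 5 days, so no array came from untreated cells. The title of the original cells also calls them a clone. The labels describe clone 2 as not expressing AQP2 and the 5 other lines as expressing it. With 1 array a line, p-values rest on the spread between lines, which holds differences of culture and array as well, and clone 2 was taken to vary like the others. The median signal was lowest in clone 2, at 79.6, and lay between 84.3 and 88.6 in the 5 other lines. Of 12 principal cell markers 10 passed the filter, while Kcnj1 and Elf5 did not. Of the fibroblast and endothelial markers 0 of 4 and 0 of 3 passed, and of 5 intercalated cell markers with a probe set 1 passed, Atp6v1b1. The summed signal of the principal cell markers was 12087 in clone 2 and 27657 to 32884 in the other lines, that of the intercalated markers 1069 against 512 to 789, that of the 4 proximal tubule markers, of which only Lrp2 passed the filter (116 against a mean of 942), 248 against 901 to 1182, that of the leukocyte markers 2506 against 1766 to 2935, that of the fibroblast markers 152 against 81.5 to 158, and that of the endothelial markers 103 against 34.0 to 116. The principal cell sum includes Aqp2 and is weighted to high signals such as Npnt (3833 in clone 2 against a mean of 10740). Of the 10 past the filter 8 were lower in clone 2. Higher were Aqp3 (192 against a mean of 117) and Avpr2 (1742 against 1610). Of 3 leukocyte markers 2 passed, Cd68 (619 in clone 2 against 122 to 323) and Csf1r (1838 against 1641 to 2564). The part of these markers in the neighbours' values was not tested.

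AQP2 is the water channel that principal cells of the collecting duct move to their apical membrane under vasopressin, and cyclic AMP raises transcription of its gene. Genes that lie side by side can share copy number, chromatin state and enhancers, so a deletion or a silenced domain that takes in Aqp2 can lower its neighbours too. The neighbours of Aqp2 are otherwise unlike each other. Tmbim6 and Faim2 encode membrane proteins of one family that protect cells from death, Bcdin3d an RNA methyltransferase, Larp4 a binding protein of messenger RNA tails, Racgap1 a GTPase regulator of cell division, Lima1 and Fmnl3 regulators of actin, Smarcd1 a subunit of the BAF chromatin remodeller, and Gpd1 an enzyme that links glycolysis to lipid synthesis.

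Promoter sequences were available for 7 of the 10 neighbours in the RefSeq table of build GRCm38.p6, each running from 250 bases before to 50 after the annotated start. Shown are Aqp2 (chr15:99578806-99579105, plus strand), Smarcd1 (chr15:99702037-99702336, plus strand), whose signal had the highest correlation with Aqp2 among the neighbours, and Larp4 (chr15:99972530-99972829, plus strand), which had the lowest. Capitals mark matches on either strand to TGACG, the core of the cyclic AMP response element, and GATAA, a core read by GATA factors; the full element TGACGTCA and the TATA box TATAAA were searched too and occurred in none of the 3.
Aqp2: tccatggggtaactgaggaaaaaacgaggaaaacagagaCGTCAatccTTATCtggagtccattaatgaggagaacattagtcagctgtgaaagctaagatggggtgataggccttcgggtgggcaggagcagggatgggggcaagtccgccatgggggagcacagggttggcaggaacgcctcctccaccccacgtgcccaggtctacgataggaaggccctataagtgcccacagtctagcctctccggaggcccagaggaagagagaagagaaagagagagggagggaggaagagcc
Smarcd1: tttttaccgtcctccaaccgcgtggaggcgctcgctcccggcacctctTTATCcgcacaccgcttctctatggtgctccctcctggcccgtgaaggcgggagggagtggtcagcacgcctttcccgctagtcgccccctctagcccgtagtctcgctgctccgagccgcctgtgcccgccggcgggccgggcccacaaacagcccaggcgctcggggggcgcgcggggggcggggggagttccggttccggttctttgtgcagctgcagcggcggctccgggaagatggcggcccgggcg
Larp4: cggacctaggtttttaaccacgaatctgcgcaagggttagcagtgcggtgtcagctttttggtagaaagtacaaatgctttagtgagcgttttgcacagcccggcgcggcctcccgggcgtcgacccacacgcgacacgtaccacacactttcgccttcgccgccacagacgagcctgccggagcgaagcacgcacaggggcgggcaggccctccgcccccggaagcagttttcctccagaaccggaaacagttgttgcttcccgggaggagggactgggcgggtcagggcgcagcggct
The Aqp2 sequence held 1 TGACG and 1 GATAA, both on the opposite strand, beginning 211 and 202 bases before the start. TGACG occurred in 0 of the 7 neighbour promoters and in 20.8% of all 32851 promoters of this length. GATAA occurred in 3 of the 7, Racgap1, Smarcd1 and Lima1, against 25.4% of all. CCAAT, not shown in capitals, occurred in 5 of the 7 against 37.4% of all, and the GC box GGGCGG in 6 of the 7 against 35.7%. Neighbour promoters had between 1 CpG dinucleotide (Lima1) and 35 (Smarcd1), with a median of 20, while Aqp2 had 8 and the median of all promoters was 7. A match describes the letters of the window and is not a shown binding site.

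Within the cluster itself, Aqp2 and Aqp6 were lower in clone 2, and Aqp5 did not pass the test. Aqp2 gave a signal of 159 in clone 2. The labels set clone 2 apart as not expressing AQP2, so its lower Aqp2 follows from the grouping. The test of Aqp2 below is therefore no independent result. The expressing lines ran from 1066 (clone 10) through 1698 (clone 3), 3822 (original cells) and 4683 (clone 9) up to 6578 (clone 11), and this order is the base of the comparisons with the neighbours. Its log2 difference, clone 2 minus the mean of the expressing lines, was -4.05 (SE 0.795, limma adjusted p = 0.0388). Adjusted p-values here are Benjamini-Hochberg values over all 22518 probe sets past the filter, with 0.05 as the threshold, and differences are of log2(signal + 18.8), which understates those of low signals. Leaving out clone 11 raised that adjusted p to 0.0535 and leaving out the original cells to 0.0869, and over all settings it ranged from 0.0174 to 0.157, the highest under robust moderation.

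Aqp6, the aquaporin gene next but one to Aqp2, had a signal of 39.0 in clone 2 against 328 in clone 3, 292 in clone 9, 250 in clone 10, 222 in clone 11 and 313 in the original cells. Clone 2 lay below every other line, and the difference was -2.36 on the log2 scale (SE 0.268, limma adjusted p = 0.00648). The 2 other Aqp6 probe sets past the filter were also below all other lines in clone 2 but were not called (log2 differences of -0.72 and -0.85, limma adjusted p = 0.191 and 0.268), and with the probe sets averaged the adjusted p was 0.0534. By its probe set of highest signal, Aqp6 did not rise with Aqp2 among the expressing lines. There its other probe sets past the filter gave correlations of 0.42 and -0.30. Its correlation with Aqp2 was 0.82 over the 6 lines (exact permutation p = 0.111) and -0.23 over the 5 expressing lines, and its other probe sets gave 0.88 (exact permutation p = 0.0361) and 0.52 (exact permutation p = 0.29) over the 6. Aqp5, a water channel of secretory glands, had 226 in clone 2 against 552, 262, 444, 201 and 244 in clones 3, 9, 10 and 11 and the original cells. That put clone 2 inside the range of the others (log2 difference -0.46, SE 0.465, limma adjusted p = 0.623).

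**Figure D1:**
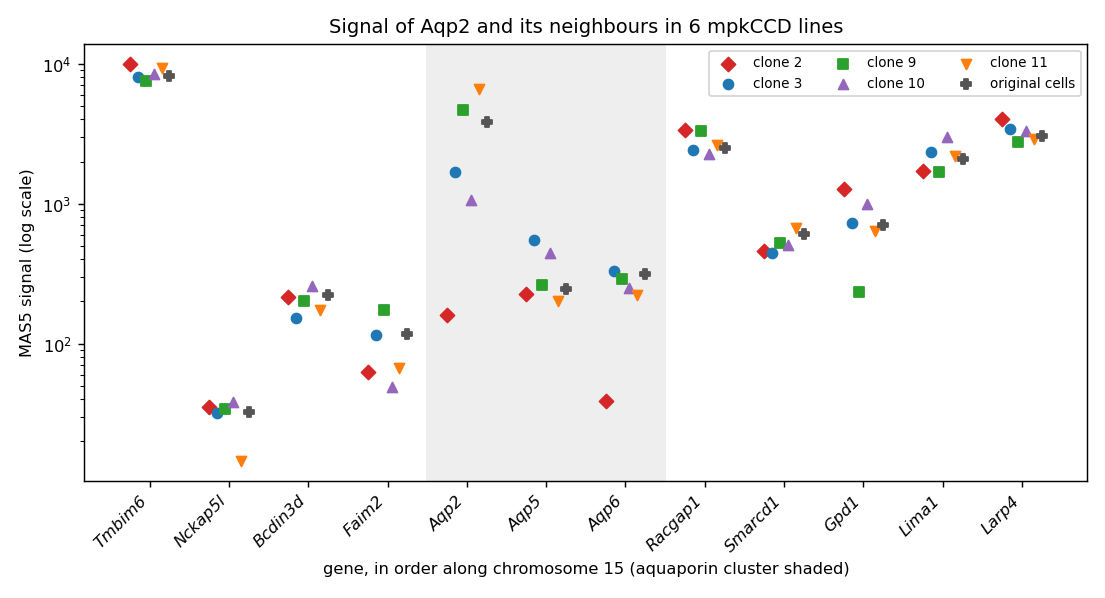
MAS5 signal (log axis) of Aqp2, Aqp5, Aqp6 and the 9 neighbours with a probe set, in gene order, with 1 point for each of the 6 lines and the aquaporin cluster shaded. Aqp2 spans 159 to 6578, whereas Tmbim6 spans 7581 to 9987 and Larp4 spans 2750 to 4044; heights are not comparable between genes, whose probes differ.

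The comparison of clone 2 with the expressing lines asks whether the neighbourhood was lower where Aqp2 was. None of the 8 neighbours past the filter was called in either direction, where 2.49% of all probe sets were called (limma), 1.67% lower and 0.817% higher. At an unadjusted p under 0.05 there was 1, Larp4, which was higher in clone 2, against 7.80% of all probe sets higher and 12.2% lower. Of the 8 differences, 3 were below 0 (52.5% of all probe sets) and 5 above, from -0.50 for Faim2 to 1.05 for Gpd1, with a median of 0.18, while the median over all 10342 genes was 0.01. That sign depended on the choice of probe set: over all 16 neighbour probe sets past the filter, 9 differences were below 0 and 7 above, with a median of -0.12. Clone 2 lay below all other lines in 0 of the 8, against 29.3% of all probe sets, and above all of them in 4, Tmbim6, Racgap1, Gpd1 and Larp4, against 24.3%. Of the 16 probe sets, 2 were below all other lines, both of Lima1, and 6 above. None of the 16 was called, and at an unadjusted p under 0.05 (limma) 1 of Lima1 was lower and 1 of Larp4 higher.

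Loss of 1 of 2 equal copies would halve a signal that is proportional to copy number, a log2 difference of -1. Neither the copy number of these lines nor that proportion was measured here. The 95% confidence interval of the difference lay wholly above -1 in 7 of the 8 neighbours and in 80.8% of all probe sets. Taken at each gene's own level, where the added offset makes a halving smaller than -1, the count was again 7 of 8 (76.0% of all probe sets). Over the 16 neighbour probe sets these counts were 13 and 12, the latter 75% of them. Among the 8, the exception by either measure was Faim2, the neighbour of lowest signal that passed the filter. Among the other probe sets, lower bounds of -1.17 and -1.45 occurred in Lima1 and of -0.99 in Gpd1. For the Lima1 probe set of highest mean signal the lower bound was -0.93, and it reached -1 without clone 11. It passed -1 without the original cells (-1.03), without the mean-variance trend (-1.02) and with the probe sets averaged (-1.08).

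**Figure D2:**
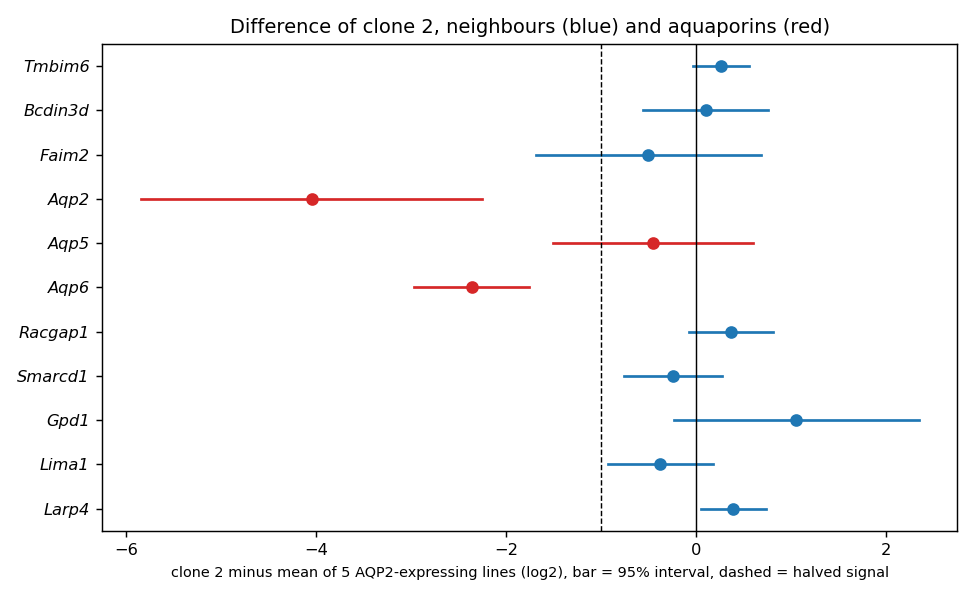
Log2 difference of clone 2 from the mean of the 5 AQP2-expressing lines (horizontal axis) for the 8 neighbours past the filter and the 3 aquaporins, in gene order. Points are differences, bars are 95% confidence intervals and the dashed line marks -1, a halved signal; 7 of the 8 neighbour intervals lie to its right, those of Faim2 and Aqp5 cross it, and those of Aqp2 and Aqp6 lie to its left.

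Tmbim6, the Bax inhibitor of the endoplasmic reticulum membrane, lies 7 annotated genes before Aqp2 and had the highest signal among the neighbours. It read 9987 in clone 2, 7993 in clone 3, 7581 in clone 9, 8487 in clone 10, 9395 in clone 11 and 8206 in the original cells. Clone 2 was thus the highest line, at 120% of the expressing mean of 8332 ± 680 (SD, n = 5), and its difference was 0.26 (95% interval -0.03 to 0.56, limma adjusted p = 0.296). Across all lines its highest signal was 1.32 times its lowest. Its relative Faim2, a gene best known from neurons and 3 genes from Aqp2, was near the filter instead. Faim2 read 62.6 in clone 2 against 114, 172, 49.3, 67.4 and 118 in clones 3, 9, 10 and 11 and the original cells. Clone 2 lay between clones 10 and 11, so the groups overlapped, and the difference of -0.50 had an interval from -1.69 to 0.68 (limma adjusted p = 0.631). Of the 4 other family members measured, Tmbim1, Tmbim4, Grina and Ghitm, none was called (limma, 0 also at an unadjusted p under 0.05), and their median difference was 0.25. The highest of them were Ghitm, at 5548 in clone 2 against 5461 ± 392 (SD, n = 5), and Grina, at 3002 against 2604 ± 247.

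Nckap5l, a centrosome protein gene 6 genes from Aqp2, stayed at low signal in every line. It read 35.1 in clone 2, between 31.7 and 38.1 in clones 3, 9 and 10 and the original cells, and 14.5 in clone 11. Tested with no filter its difference was 0.16 (95% interval -0.83 to 1.15, limma adjusted p = 0.919).

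The RNA-related neighbours lie on opposite sides of the cluster. Bcdin3d, which methylates the end of small RNAs, read 214 in clone 2 against 152, 202, 256, 174 and 221 in clones 3, 9, 10 and 11 and the original cells. Clone 2 was in the middle of the others, with a difference of 0.10 (95% interval -0.56 to 0.76, limma adjusted p = 0.882). Larp4, which binds the poly(A) tail and its binding protein and lies 24 genes after Aqp2, read 4044 in clone 2 against 3413, 2750, 3299, 2899 and 3057. Clone 2 was the highest line, 1.31 times the expressing mean of 3084 ± 274 (SD, n = 5), with a difference of 0.39 (95% interval 0.05 to 0.73, limma unadjusted p = 0.0283, adjusted p = 0.192). This was not seen with its 2 other probe sets past the filter, whose differences were -0.03 and -0.25 (limma adjusted p = 0.933 and 0.495). Among 6 further La-related and tail-binding genes past the filter none was called, with a median difference of -0.15. At an unadjusted p under 0.05 (limma) there were 2, both lower, where 12.2% of all probe sets were. Of the 6, the highest signals were those of Pabpc1, the poly(A)-binding protein, and Larp4b. Pabpc1 read 24965 in clone 2 against 24578 ± 740 (SD, n = 5), and Larp4b 6601 against 5414 ± 413.

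Racgap1, which with Kif23 forms the centralspindlin complex of the dividing cell, is the first gene past the filter after the cluster. It read 3358 in clone 2 against 2413, 3320, 2265, 2632 and 2504 in clones 3, 9, 10 and 11 and the original cells. Clone 2 exceeded clone 9 by little and the rest by more, a difference of 0.37 (95% interval -0.08 to 0.81, limma adjusted p = 0.332), and a further probe set gave 0.32. All 12 of its listed cytokinesis partners passed the filter and none was called. At an unadjusted p under 0.05 (limma) there was 1, higher, where 7.80% of all probe sets were. Of the 12, 11 had a positive difference, with a median of 0.29, while 52.5% of all probe sets had a difference below 0. The highest were Rhoa, the GTPase of the contractile ring, at 7182 in clone 2 against 6733 ± 755 (SD, n = 5), and Incenp, a chromosomal passenger protein, at 7239 against 6723 ± 1108.

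Lima1, the actin-bundling protein EPLIN of adherens junctions, was among the lower lines in clone 2. It read 1709 there against 2341, 1697, 2973, 2181 and 2099 in clones 3, 9, 10 and 11 and the original cells. Clone 9 was as low as clone 2, and the difference was -0.37 (95% interval -0.93 to 0.18, limma adjusted p = 0.431). All 4 Lima1 probe sets past the filter had a negative difference, the lowest being -0.78 (limma adjusted p = 0.187), with clone 2 below every other line in 2 of them. Of its partners past the filter, 5 of 6 had a negative difference (52.5% of all probe sets), with a median of -0.22, and none was called. At an unadjusted p under 0.05 (limma) there were 3, all lower, where 12.2% of all probe sets were. Actb, beta-actin, read 23488 in clone 2 against 30044 ± 3187 (SD, n = 5), and Ctnnb1, beta-catenin, 14759 against 16431 ± 1088. The formins listed beside Fmnl3 gave 1 call of 7, where 2.49% of all probe sets were called, and it was Fmnl2, an actin assembly factor, at 1131 in clone 2 against 2678 ± 545 (log2 difference -1.20, 95% interval -1.77 to -0.64, limma adjusted p = 0.0454). With no filter its limma adjusted p was 0.0878, above the threshold. The formins did not share a direction: 3 of the 7 had a negative difference (52.5% of all probe sets), with a median of 0.06.

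Smarcd1 lies 7 genes after Aqp2. It read 458 in clone 2 against 446, 522, 509, 672 and 605 in clones 3, 9, 10 and 11 and the original cells. Clone 3 was lower than clone 2, and the difference was -0.24 (95% interval -0.76 to 0.28, limma adjusted p = 0.593). Of 14 other BAF subunits past the filter 9 had a negative difference (52.5% of all probe sets) and none was called, with a median of -0.08. At an unadjusted p under 0.05 (limma) there were 4, all lower, where 12.2% of all probe sets were. Pbrm1, a bromodomain subunit, read 4912 in clone 2 against 4888 ± 414 (SD, n = 5). Smarcd2, the close relative of Smarcd1, read 4416 against 4230 ± 518.

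Gpd1, the cytosolic glycerol-3-phosphate dehydrogenase, had the widest range of the neighbours past the filter, 5.38 times from lowest to highest. It read 1264 in clone 2 against 727, 235, 988, 635 and 703 in clones 3, 9, 10 and 11 and the original cells. Clone 2 was highest and clone 9 far below the rest. The difference was 1.05 (SE 0.571, 95% interval -0.24 to 2.34, limma adjusted p = 0.336), which is 1.92 times the expressing mean of 658 ± 272 (SD, n = 5) on the linear scale. Of its 2 other probe sets past the filter, one gave 1.05 and the other -0.20, neither called. None of 6 genes of glycerol phosphate metabolism was called (limma, 4 at an unadjusted p under 0.05, 3 of them lower; median difference -0.35). Of all probe sets 12.2% were lower and 7.80% higher at that unadjusted p (limma). Among the 6 genes Gpd2, the mitochondrial enzyme of the same shuttle, read 2121 in clone 2 against 2887 ± 321 (SD, n = 5). Agpat2, an acyltransferase of lipid synthesis, read 1462 against 1930 ± 116.

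The second comparison asks whether the neighbours followed Aqp2 over all 6 lines. In a fit of each probe set on the log2 signal of Aqp2, 0 of 8 neighbours was called, where 1.76% of all probe sets were (limma, 1.02% with a positive and 0.742% with a negative slope). At an unadjusted p under 0.05 there were 2, Gpd1 and Larp4, both with a negative slope, against 19.9% of all probe sets in either direction. Slopes were positive for 3 neighbours, Faim2, Smarcd1 and Lima1 (52.4% of all probe sets), and negative for 5, and a gene moving in full proportion to Aqp2 would have a slope of 1. The highest upper bound of a 95% interval was 0.39, for Faim2. Aqp6, whose clone 2 difference was -2.36, had a slope of 0.42 (95% interval 0.18 to 0.66), also below 1. A bound below 1 therefore does not tell whether a neighbour followed Aqp2 by a smaller slope. Correlations with Aqp2 had a median of -0.29 among the neighbours and -0.01 among all 10342 genes. Over the 16 neighbour probe sets the median was -0.02, with 8 slopes positive and 8 negative. They shared the arrays and the same Aqp2 values, and 11 such relations were computed, with Nckap5l, Aqp5 and Aqp6. All 720 pairings of the lines were used, which can give a two-sided p no smaller than 0.00139 for r and 0.00278 for rho.

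Smarcd1 had the highest correlation with Aqp2 among the neighbours (r = 0.72, exact permutation p = 0.101, and rho = 0.77, exact permutation p = 0.103). It was at the 85.2nd percentile of all probe sets, and r was 0.55 without the 2 lines farthest from the median of Aqp2. Its slope was 0.08 (SE 0.0446, limma adjusted p = 0.341), so a doubling of Aqp2 went with a rise of 0.08 on the log2 scale. On linear signals r was 0.85 (exact permutation p = 0.0319). Faim2 followed with r = 0.50 (exact permutation p = 0.315, rho = 0.60, exact permutation p = 0.242), and r without the 2 farthest lines was 0.89. In Faim2, however, clone 11 had the highest Aqp2 and a signal of only 67.4.

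Larp4 ran opposite to Aqp2 more closely than any other neighbour. Its r was -0.95 (exact permutation p = 0.00833) and its rho -0.89 (exact permutation p = 0.0333), at the 0.697th percentile of all probe sets, and r was -0.85 without the 2 farthest lines. The slope of -0.10 (SE 0.0280, limma adjusted p = 0.102) did not pass over all probe sets. It rested on 1 probe set. The other 2 gave r = 0.35 (exact permutation p = 0.499) and r = 0.23 (exact permutation p = 0.711), so the direction itself differed between probe sets of this gene.

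Gpd1 also ran opposite to Aqp2, with r = -0.71 (exact permutation p = 0.126) and rho = -0.94 (exact permutation p = 0.0167). Here r was -0.79 without the 2 farthest lines, -0.79 with the second probe set (exact permutation p = 0.0556) and -0.21 with the third (exact permutation p = 0.683). The slope was -0.30 (SE 0.102, limma adjusted p = 0.15). Clone 10 and clone 2, the lines of lowest Aqp2, had the highest Gpd1.

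The other neighbours had weaker or changing correlations with Aqp2. Tmbim6 had r = -0.55 (exact permutation p = 0.267, rho = -0.37, exact permutation p = 0.497), and -0.72 without the 2 farthest lines but 0.22 over the expressing lines alone. Bcdin3d had r = -0.30 (exact permutation p = 0.571, rho = -0.43, exact permutation p = 0.419), and -0.12 without the 2 farthest lines. For Racgap1 r was -0.27 (exact permutation p = 0.653, rho = 0.09, exact permutation p = 0.919), and it turned to 0.81 without the 2 farthest lines. For Lima1 r was 0.10 (exact permutation p = 0.857, rho = -0.20, exact permutation p = 0.714), and it turned to -0.95 without them. Nckap5l, below the filter, had r = -0.53 (exact permutation p = 0.215, rho = -0.71, exact permutation p = 0.136), and -0.52 without them. In the cluster, rho was 0.20 for Aqp6 (exact permutation p = 0.714), with r = 0.47 without the 2 farthest lines, and Aqp5 had r = -0.14 (exact permutation p = 0.81) and rho = -0.31 (exact permutation p = 0.564), with -0.86 without them.

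**Figure D3:**
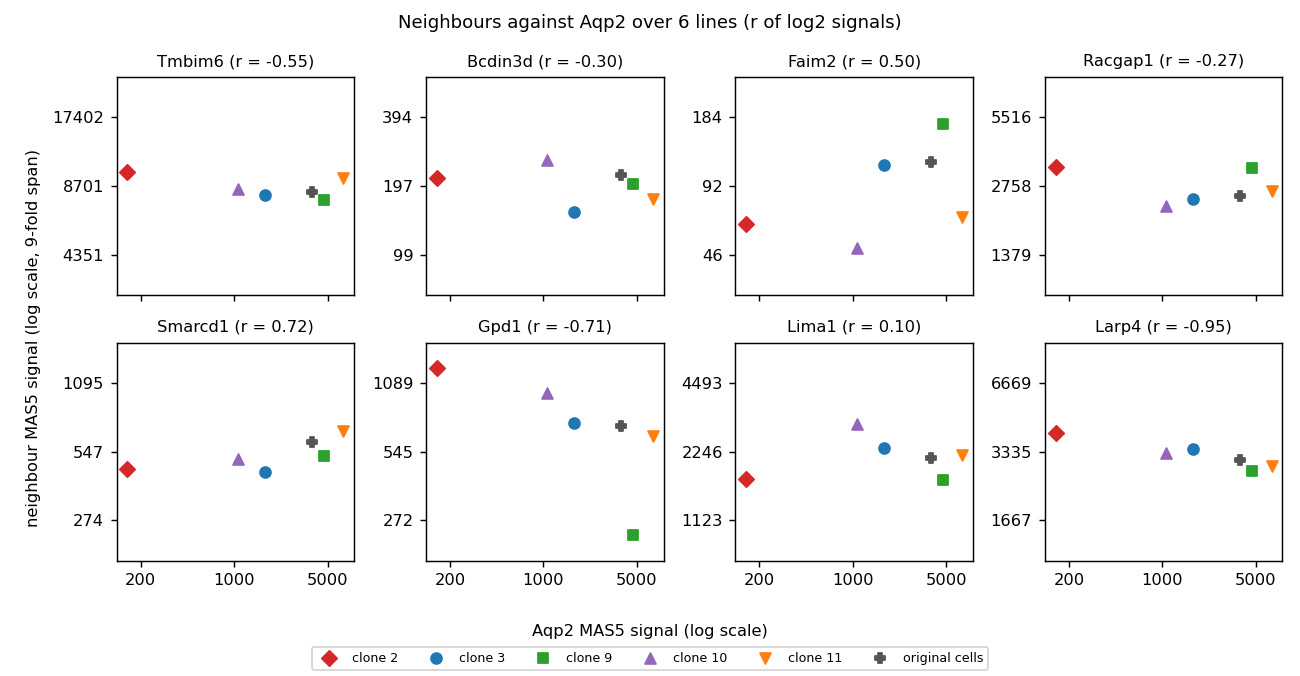
MAS5 signal of each of the 8 neighbours past the filter (vertical, log axis spanning 9-fold in every panel) against that of Aqp2 (horizontal, log axis), with 1 point for each of the 6 lines and r of the log2 values above each panel. Larp4 (r = -0.95) and Gpd1 (r = -0.71) fall as Aqp2 rises, Smarcd1 (r = 0.72) rises by little, and the others show no single trend.

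**Figure D4:**
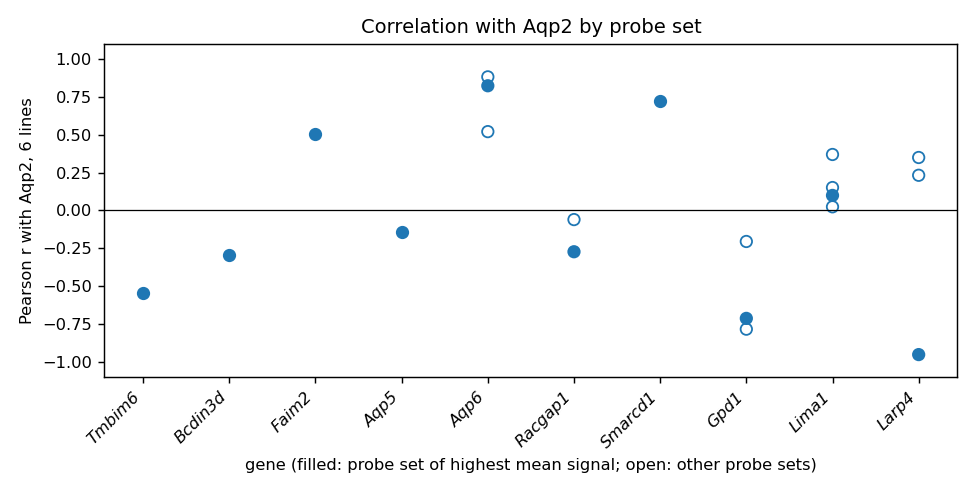
Pearson r with Aqp2 over the 6 lines (vertical) for every probe set past the filter of the 8 neighbours, Aqp5 and Aqp6, in gene order. Filled points are the probe sets of highest mean signal and open points the others; the 3 probe sets of Larp4 lie at -0.95, 0.23 and 0.35, while the 4 of Lima1 lie between 0.02 and 0.37.

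The neighbours were also compared with each other. Among the 28 pairs of the 8 neighbours, r over the 6 lines had a median of 0.02 and was above 0 in 14 pairs. Described without a test, since all pairs share the same arrays, it ran from -0.93 for Racgap1 with Lima1 to 0.83 for Gpd1 with Larp4. Line by line, the median deviation of the 8 neighbours from the mean of the 5 other lines was 0.18 for clone 2. It was -0.01, -0.12, 0.01 and -0.08 for clones 3, 9, 10 and 11 and 0.02 for the original cells. No line had its neighbours lower than -0.12 in the median.

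The comparison was then widened. Of the 60 annotated genes within 30 on each side of the cluster, 26 had a probe set and 19 passed the filter, the 8 neighbours among them. None of the 19 was called by limma in the clone 2 comparison or on the slope. At an unadjusted p under 0.05 (limma) there was 1 in the first, Larp4, which was higher in clone 2. Of all probe sets 7.80% were higher and 12.2% lower at that p. In the second there were 3, Gpd1, Larp4 and Dip2b, with negative slopes, against 19.9% of all probe sets in either direction. The median difference of the 19 genes was 0.09, with 7 below 0. It was 0.09 for the 10 genes before the cluster and 0.03 for the 9 after it. Among the 11 that were not listed neighbours, Cers5, a ceramide synthase next to Lima1, read 7706 in clone 2 against 7914, and Dip2b, beyond Larp4, 1688 against 1415; both were named after their values were seen. The 400 genes of chromosome 15 past the filter had a median difference of 0.17, with 30.5% of them below 0 against 48.5% of all genes. That placed chromosome 15 at rank 6 of 20 from the highest median, and clone 2 differed by chromosome more widely than this, from -0.37 on chromosome 17 to 0.47 on the X. Of the 400 genes, 5 were called lower, Aqp2, by which the lines were grouped, and Aqp6 among them, and 8 higher. Counted likewise by gene, 192 of all 10342 genes past the filter were called lower and 133 higher (limma). Of all probe sets, which can be several for 1 gene, 1.67% were called lower and 0.817% higher.

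**Figure D5:**
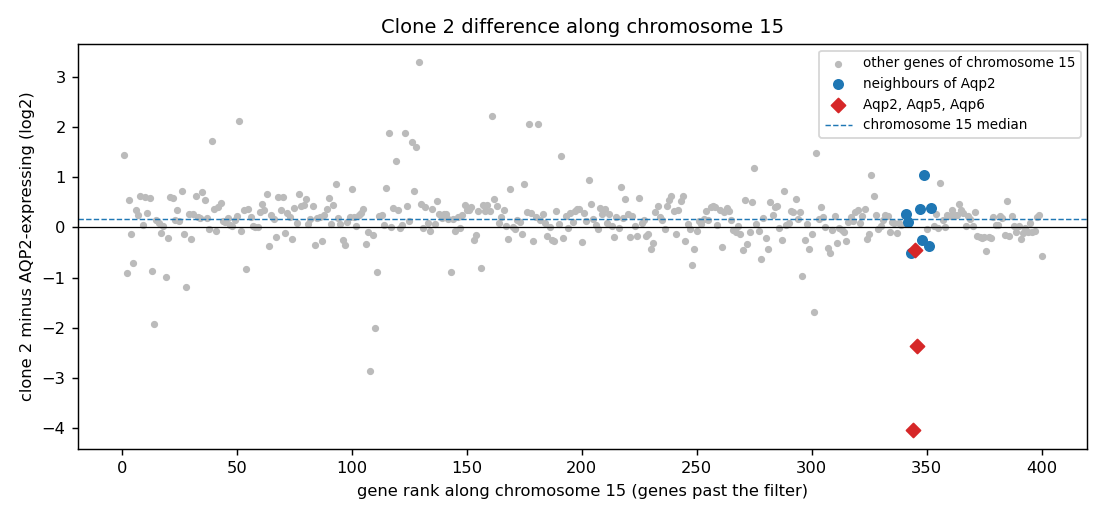
Log2 difference of clone 2 from the mean of the AQP2-expressing lines (vertical) for the 400 genes of chromosome 15 past the filter, by gene rank along the chromosome (horizontal). The neighbours (blue) lie between -0.50 and 1.05 around the chromosome median of 0.17 (dashed), and Aqp2, Aqp6 and Aqp5 (red) lie at -4.05, -2.36 and -0.46.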

How the data were processed

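The authors deposited 1 table of linear MAS5 signal intensities for 6 Affymetrix arrays. Expression Console 1.1 is named in the submitters' processing notes. Every array had the same trimmed mean of 500 (without the lowest and highest 2% of values), as found from the values, and how it was set is not stated. Since MAS5 corrects each probe by its mismatch partner, low values vary more. Depth does not apply to arrays, and their number limits the precision.

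From these, 64 control probe sets were left out, and log2(signal + 18.8) was taken, the offset being the 25th percentile. Probe sets with a mean signal above 85.5, the median, were kept. Symbols came from the platform annotation, updated by gene identifier to the GRCm38.p6 gene table, which also gave gene order; of 45037 probe sets 34945 had 1 gene, 932 several and 9160 none. limma 3.58.1 (lmFit, eBayes with trend, R 4.3.3) gave two-sided tests with 4 residual degrees of freedom and 95% intervals, on clone 2 and on the log2 signal of Aqp2. Correlations were pooled over the 6 lines, as the gap of clone 2 in log2 Aqp2 was 0.500 of the range, under Dixon's value of 0.625. With 6 values this cannot show that clone 2 belongs with the other lines, from which its label sets it apart. Fits were tested on simulated data. The named genes were the 10 neighbours, the 3 aquaporins, and from each partner list those called or else the 2 of highest signal. Members and lists were chosen with earlier results of these data known. Alternatives covered the offset, filter, scaling, eBayes settings, probe set choice, window size and leaving out lines.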

Additional observations from a re-analysis of the deposited data

Results flagged for a closer look

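Among the 5 AQP2-expressing lines, clone 11 stood apart from the others in Nckap5l, with a signal of 14.5 against 31.7 to 38.1. Its gap to the next line was 0.777 of the group's range on the log2 scale, above the critical value of 0.71 for 5 samples. This was 1 of 12 genes examined in this way, and chance flags about 1 in 20. The gene lay below the filter in all lines.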

How the results depend on the processing

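No neighbour was called in the clone 2 comparison under any of 14 alternatives or on the slope under any of 15, and in these 14 each neighbour's clone 2 difference kept its sign. Single other probe sets, which were not among the 14, turned it for Larp4 (-0.03 and -0.25) and, in 1 of 2, for Gpd1 (-0.20). The count of neighbours whose interval lay above -1 was 5 of 5 with the filter at the 75th percentile and 6 to 8 otherwise. The counts of calls over all probe sets were unstable. For clone 2 the 560 became 210 with no filter, 219 without the trend and 287 genes with probe sets averaged, and leaving out 1 expressing line gave 154 to 943. For the slope the 397 became 51 with no filter, 1 without the trend, 162 genes with probe sets averaged and 3 without clone 2, and leaving out 1 expressing line gave 0 to 645. Median centring moved the median of all probe sets from -0.03 to 0.06 and the share of lower calls from 67.1% to 47.7%. It also moved the median difference of the neighbours from 0.18 to 0.28, of the window to 0.18 and of chromosome 15 to 0.26. With the filter at the 75th percentile that of the neighbours was 0.37 and of the window 0.18, a window of 60 genes each side gave 0.22, and chromosome 15 without a filter gave 0.076. Leaving out 1 expressing line gave 0.13 to 0.23 for the neighbours, 0.06 to 0.11 for the window and 0.15 to 0.18 for chromosome 15.

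Leaving out each line in turn, the slope of Tmbim6 ran from -0.076 to 0.024, of Racgap1 from -0.068 to 0.13, of Lima1 from -0.21 to 0.050, of Aqp5 from -0.49 to 0.031 and of Aqp6 from -0.046 to 0.53. The change of sign came without clone 2, except for Aqp5, where it came without clone 11. Correlations that changed sign without clone 2, an alternative chosen after seeing the data, were those of Tmbim6 (0.22), Racgap1 (0.67), Lima1 (-0.79) and Aqp6 (-0.23). Without the 2 lines farthest in Aqp2 those of Racgap1 (0.81) and Lima1 (-0.95) did, on linear signals that of Lima1 (-0.22), and with other probe sets that of Larp4 (0.23 and 0.35). The cause was not tested, save that fewer lines entered where a line was left out. No paired analysis was possible because the replicate numbers only name the lines and the group of clone 2 has 1.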
